A study of Mus musculus with 16 samples.

Results

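The effect of cabozantinib averaged over an anti-PD-1 antibody was measured in 16 mouse tumours, of which 9 came from mice given cabozantinib and 7 from mice that were not. For each gene it is the mean of the Cabozantinib and Combination group means minus the mean of the Placebo and AntiPD1 group means, so that both antibody arms count equally. The values are log2 array signals, and a difference of 1 is a change of 2-fold. Each gene was read from the probe set (a group of short probes for a transcript) that names 1 gene and has the highest mean over the 16 arrays, which gave 17097 genes from 45141 probe sets.

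All 16 tumours grew from injected Hepa1-6 cells, a mouse liver cancer line. The cells were placed in 50% Matrigel under the skin of the right flank of male C57BL/6 mice aged 5 weeks. The Placebo group (n = 4) received hamster IgG at 10 mg/kg by intraperitoneal injection every 3 days for 5 doses, and the AntiPD1 group (n = 3) received the hamster anti-mouse PD1 antibody J43 on the same schedule. The Cabozantinib group (n = 5) received 30 mg/kg by mouth daily, and the Combination group (n = 4) received both drugs. Treatment began at 200 to 300 cubic mm, and tumours were taken on day 14. The labels do not say if mice on cabozantinib alone were injected with IgG too. The tumours lay in the flank, outside the liver, and the hosts kept their immune cells. The labels name no scan batch and do not say whether any tumours shared a mouse, so a p-value measures only the spread between these tumours.

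Cabozantinib is an oral inhibitor of several receptor tyrosine kinases, among them the VEGF receptors, MET, KIT, RET and the TAM kinases AXL and MERTK. VEGF receptor signalling keeps new tumour vessels alive and drives sprouting, in which tip cells lead each new branch and pericytes wrap the tube behind them. In tissue that is short of oxygen, hypoxia-inducible factors switch on genes of glucose uptake, glycolysis, glycogen storage and VEGF itself. PD-1 is an inhibitory receptor of T cells that the antibody blocks.

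The liver-cell label held in all groups. Alb, the gene of serum albumin, had group means between 12.95 and 13.17, and Afp, the fetal liver gene alpha-fetoprotein, between 12.50 and 12.67, against array medians of 4.92 to 5.13. Correlations between arrays ran from 0.944 to 0.995. The mean of the skeletal muscle list, as a log2 deviation from all tumours, was above 2 in AntiPD1 replicate 2, Cabozantinib replicate 4 and Combination replicate 4, which are called muscle-high. The next were Cabozantinib replicate 3 at 1.85, Placebo replicate 3 at 0.69 and Combination replicate 3 at 0.44, so fits without the muscle-high arrays still hold tumours with some muscle signal. The adipocyte mean was above 1.5 in Cabozantinib replicate 2 and Combination replicate 1, called adipocyte-high, and Combination replicate 2, which those fits keep, was next at 1.41. The mean of the spiked hybridisation controls was higher on the arrays with cabozantinib, with group means of 10.06 for Placebo, 10.18 for AntiPD1, 10.64 for Cabozantinib and 10.33 for Combination. That difference of 0.367 had a two-sided exact permutation p of 0.02902 within antibody arms, 0.1741 after adjustment over 6 array measures. Its part in the results was not tested beyond a fit that holds it as a covariate, which is given where it moved a count.

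Genes of blood vessels, mast cells and haemoglobin fell with cabozantinib, and genes of the hypoxia response and of glycogen storage rose. Of the 17097 genes, 147 rose (0.86%) and 215 fell (1.26%) at an adjusted p under 0.05 in limma's test, and 2753 had an unadjusted p under 0.05. By size, 45 genes fell by at least 1 on the log2 scale and 13 rose by as much. All 9 tumours with cabozantinib lay below all 7 without it in 50 genes (0.292%), of which 48 were called, and above them in 25 genes (0.146%), of which 22 were called. The median difference over all genes was 0.001. The total of 362 called genes leaned on single arrays: it was 228, 168 and 202 without Placebo replicates 2, 3 and 4, 202 and 158 without AntiPD1 replicates 1 and 3, and 231 and 188 without Combination replicates 2 and 3. It was 132 with the hybridisation controls as a covariate, 230 without the 2 adipocyte-high arrays and 77 without these and the 3 muscle-high arrays, where 11 tumours remain. Each array set to the same median gave 93 rises and 212 falls.

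**Figure D1:**
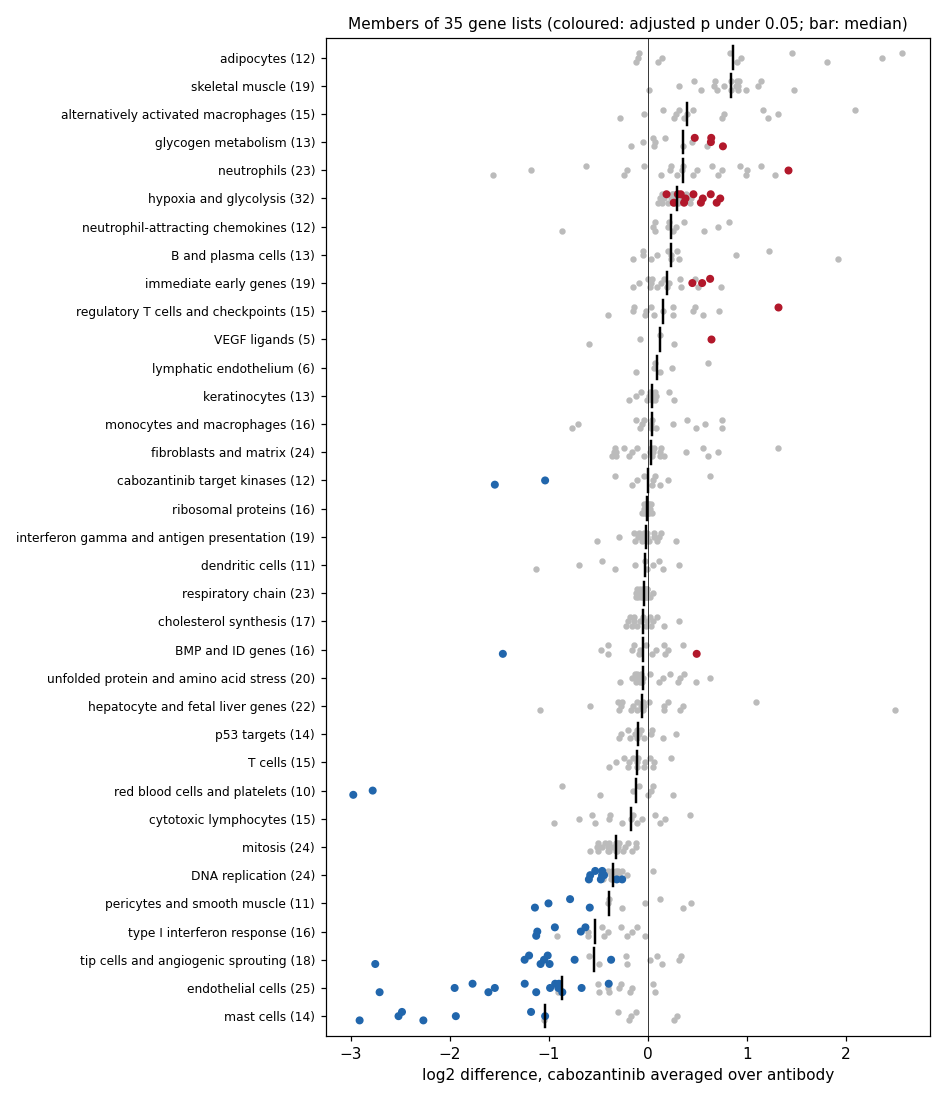
Log2 difference of cabozantinib averaged over antibody (x axis) for each measured member of 35 gene lists (y axis, number of measured members in brackets), lists in order of their medians (black bars). Red points rose and blue points fell at an adjusted p under 0.05 in limma; blue points gather in the mast cell, endothelial, tip cell, pericyte, type I interferon and DNA replication lists, red points in the hypoxia and glycogen lists.

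Endothelial genes fell as a group. Of 25 measured markers, 14 fell and 0 rose, against 1.26% and 0.86% of all genes. A positive difference was found in 2, against 50.3% of all genes, and the median was -0.866. In bulk tumours, fewer endothelial cells and less RNA per cell cannot be told apart. Gpihbp1, which anchors lipoprotein lipase to the capillary wall, stood at 6.98, 6.74, 7.72 and 7.34 in the Placebo tumours, 7.84, 8.22 and 7.88 in the AntiPD1 tumours, 4.84, 5.88, 4.34, 4.65 and 5.06 in the Cabozantinib tumours, and 4.75, 4.36, 4.95 and 5.11 in the Combination tumours. All 9 tumours with the drug were below all 7 without it, and the averaged difference was -2.71 ± 0.20 (SE; limma adjusted p = 1.46e-05), a fall by 6.55-fold. Its Combination mean of 4.79 was under the lowest array median of 4.92 and its Cabozantinib mean was 4.96, so background may limit the size of this fall. Cdh5, the adhesion protein VE-cadherin of endothelial junctions, read 6.01, 6.11, 6.62 and 6.52 under Placebo, 7.39, 7.81 and 7.28 under AntiPD1, 4.64, 5.05, 4.96, 5.62 and 4.66 under Cabozantinib, and 5.14, 5.04, 5.29 and 5.65 under Combination. Again the groups with and without the drug did not overlap, and Cdh5 fell by 1.77 ± 0.15 (adjusted p = 3.62e-05).

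Emcn, a sialomucin of venous and capillary endothelium, fell by 1.95 ± 0.23 (adjusted p = 0.00082) and lay below all 7 other tumours in 8 of 9. Egfl7, a matrix protein that endothelial cells secrete, fell by 1.13 ± 0.16 with 9 of 9 tumours below, and Adgrl4, an adhesion receptor of vessel cells, by 0.99 ± 0.14 with 4 of 9 below. The count of 14 was 7 without the muscle-high and adipocyte-high arrays, and no single array moved it by more than 1.5 times.

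Genes of tip cells and vessel sprouting also fell. Of 18 measured, 9 fell and 0 rose, against 1.26% and 0.86% of all genes, and the median was -0.547. In 7 of the 18, all 9 tumours with cabozantinib lay below the 7 without it, against 0.292% of all genes. A positive difference, up to 0.33, was found in 5 of the 18. Esm1, a secreted proteoglycan made by tip cells in response to VEGF, had the smallest p of all genes. Its signals were 6.11, 6.85, 6.70 and 7.24 under Placebo, 7.82, 8.31 and 8.64 under AntiPD1, 4.54, 4.89, 4.47, 4.78 and 4.62 under Cabozantinib, and 5.11, 4.45, 4.90 and 4.78 under Combination. No Placebo or AntiPD1 tumour came near the level of the others, and Esm1 fell by 2.76 ± 0.16 (adjusted p = 7.4e-07), 6.75-fold. Its means of 4.66 and 4.81 in the groups with the drug were under the lowest array median of 4.92, so the same limit applies. At least 1 of the treated group means was that low for 66 of the 362 called genes, and for 14 of them all 4 group means were.

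Apln, the ligand of the apelin receptor and a tip cell gene, fell by 1.20 ± 0.15, and Col4a1, a chain of the collagen of vessel basement membrane, by 1.09 ± 0.14. Trp53i11, which is enriched in tip cells, fell by 1.05 ± 0.11, and these genes each had 9 of 9 tumours below all the others. Notch4, an endothelial Notch receptor, fell by 1.01 ± 0.13, but 0 of its 2 other probe sets had the same sign. Bmp2, a bone morphogenetic protein, was the member of the BMP and ID list that fell (1 of 16), by 1.47 ± 0.15 with 9 of 9 tumours below. Another member, Bmp4, rose (1 of 16), by 0.49 ± 0.12 (adjusted p = 0.049), a call lost in 12 of the 16 fits without 1 array, and the list's median was -0.052.

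Some markers of the mural cells around vessels fell too. Among 11 markers of pericytes and smooth muscle, 4 fell and 0 rose, against 1.26% and 0.86% of all genes, with a median of -0.396. A positive difference, up to 0.43, was found in 3 of the 11. Rgs5, a G protein regulator that marks pericytes, measured 11.34, 11.37, 11.25 and 11.24 in Placebo tumours, 11.02, 11.52 and 11.102 in AntiPD1 tumours, 10.42, 10.56, 10.38, 9.85 and 10.56 in Cabozantinib tumours, and 10.43, 10.46, 10.65 and 10.78 in Combination tumours. The gap was narrow but complete, and Rgs5 fell by 0.79 ± 0.11 (adjusted p = 0.0017). Mcam, an adhesion molecule of mural and endothelial cells, fell by 1.14 ± 0.16. Higd1b, a pericyte gene, fell by 1.01 ± 0.17, and Kcnj8, a potassium channel subunit of pericytes, by 0.59 ± 0.10. The pericyte count was 2 without the muscle-high and adipocyte-high arrays. Of 6 lymphatic endothelial markers, 0 passed in limma and 0 had an unadjusted p under 0.05, with a median of 0.095. Flt4, the VEGF receptor of lymphatic vessels, differed by 0.12 ± 0.09 (adjusted p = 0.56).

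**Figure D2:**
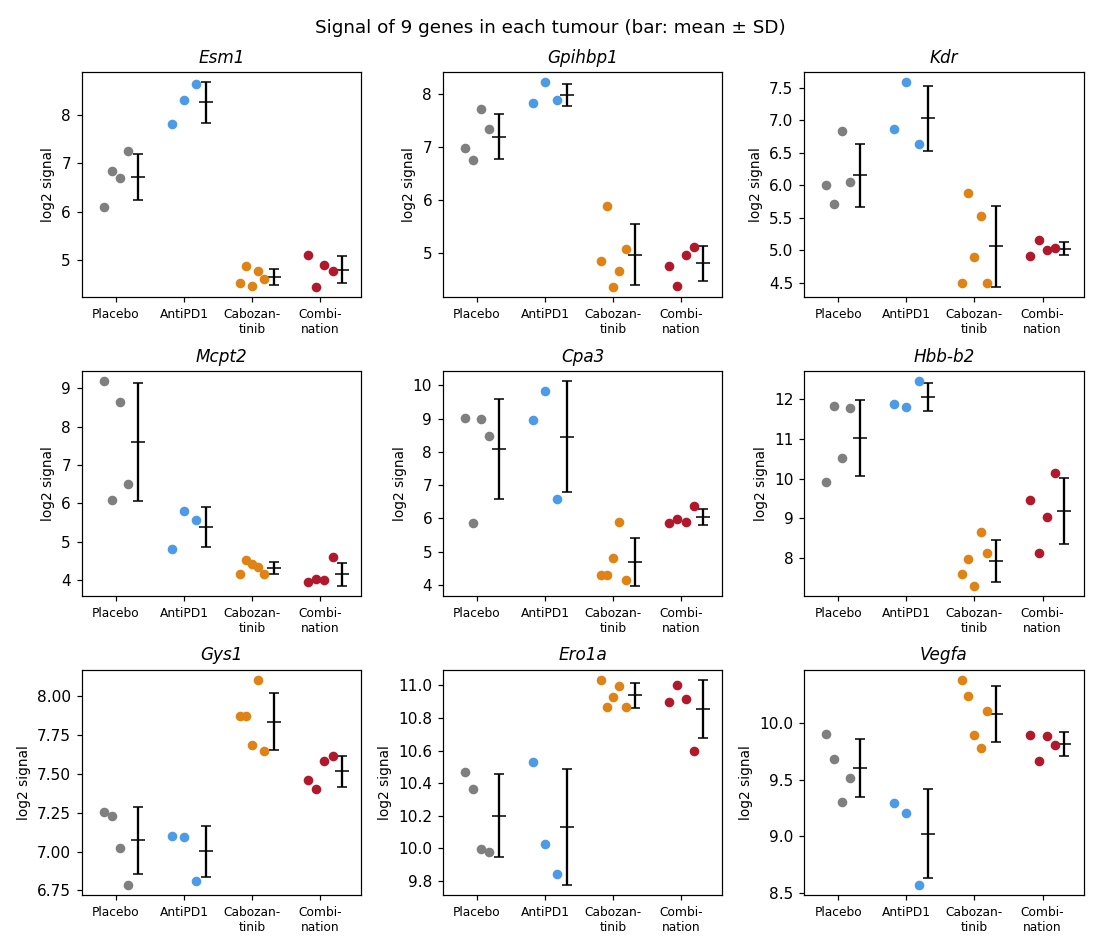
Log2 signal (y axis) of 9 genes in every tumour of the 4 groups (x axis), 1 point per tumour, with the group mean and SD as bars. Esm1 and Gpihbp1 lie lower in all 9 tumours with cabozantinib, Gys1 and Ero1a lie higher in all 9, and Cpa3 and Vegfa overlap between groups.

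The kinases that cabozantinib inhibits did not move together at the RNA level. Of 12 measured, 2 fell and 0 rose, against 1.26% and 0.86% of all genes, and the median was -0.004. Kdr, VEGF receptor 2, gave 6.01, 5.72, 6.84 and 6.05 under Placebo, 6.86, 7.59 and 6.64 under AntiPD1, 4.50, 5.89, 4.90, 5.52 and 4.50 under Cabozantinib, and 4.91, 5.16, 5.00 and 5.04 under Combination. Cabozantinib replicate 2 alone reached into the Placebo range, and Kdr fell by 1.55 ± 0.22 (adjusted p = 0.0027). Kdr is also counted among the endothelial markers that fell. Kit, the stem cell factor receptor carried by mast cells and also counted among the mast cell markers, fell by 1.04 ± 0.15 (adjusted p = 0.0029). Flt1, VEGF receptor 1, had group means of 7.52 for Placebo, 8.07 for AntiPD1, 7.64 for Cabozantinib and 8.05 for Combination. Its averaged difference was 0.05 ± 0.17 (adjusted p = 0.93), and 1 of its 2 other probe sets had the same sign. Met, the hepatocyte growth factor receptor, differed by 0.20 ± 0.09, Tek, the angiopoietin receptor TIE2, by -0.16 ± 0.17, Ret by 0.07 ± 0.04 and Mertk by -0.04 ± 0.41, none past the threshold.

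Among the 5 VEGF ligand genes, 1 rose. Vegfa was 9.90, 9.68, 9.30 and 9.52 in the Placebo tumours, 9.29, 9.21 and 8.57 in the AntiPD1 tumours, 10.38, 10.24, 9.89, 9.78 and 10.105 in the Cabozantinib tumours, and 9.89, 9.66, 9.89 and 9.81 in the Combination tumours. The groups overlapped, since Placebo replicate 1 was as high as several treated tumours, but within the antibody arm all 4 Combination values exceeded the 3 AntiPD1 values. Vegfa rose by 0.63 ± 0.12 (adjusted p = 0.0165). The adjusted p was 0.0516 with the probe set of the largest variance, 0.0702 with the antibody ignored, 0.0565 with the hybridisation controls as a covariate, 0.0522 without the adipocyte-high arrays and 0.0883 without these and the muscle-high arrays.

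The list of hypoxia response and glycolysis genes held the most rises of the 35 lists. Of 32 measured members, 12 rose and 0 fell, against 0.86% and 1.26% of all genes. All 32 had a positive difference, against 50.3% of genes on the whole array, and the median was 0.288. Ero1a, an oxidase of the endoplasmic reticulum that helps proteins form disulfide bonds, was 10.47, 10.37, 9.99 and 9.98 in Placebo, 10.53, 10.02 and 9.84 in AntiPD1, 11.04, 10.87, 10.93, 10.995 and 10.87 in Cabozantinib, and 10.90, 11.01, 10.92 and 10.60 in Combination tumours. All 9 values with the drug exceeded the 7 without it, with a rise of 0.73 ± 0.10 (adjusted p = 0.0026). P4ha2, a subunit of the collagen prolyl hydroxylase, read 9.90, 9.57, 9.33 and 9.52 under Placebo, 9.56, 9.81 and 9.54 under AntiPD1, 10.35, 10.22, 10.46, 10.50 and 10.06 under Cabozantinib, and 9.89, 10.09, 9.93 and 10.14 under Combination. Combination replicate 1 was just under Placebo replicate 1, and P4ha2 rose by 0.55 ± 0.09 (adjusted p = 0.0059).

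The other named members rose by less than 1 on the log2 scale. Ndrg1, a hypoxia-induced stress gene, rose by 0.69 ± 0.12 and Egln3, a prolyl hydroxylase that marks hypoxia-inducible factors for decay, by 0.53 ± 0.09. Mxi1, an antagonist of MYC, rose by 0.38 ± 0.06 with 9 of 9 tumours above, and Slc2a1, the glucose transporter GLUT1, by 0.33 ± 0.06 with 8 of 9 above. The count of 12 was 7 with each array set to the same median, 7 with the hybridisation controls as a covariate and 0 without the muscle-high and adipocyte-high arrays, where Ero1a differed by 0.76 (adjusted p = 0.0554).

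Glycogen genes rose beside them. Of 13 measured, 4 rose and 0 fell, against 0.86% and 1.26% of all genes. A positive difference was found in 11, and the median was 0.353. Gys1, the glycogen synthase found outside the liver, stood at 7.25, 7.23, 7.02 and 6.79 in Placebo tumours, 7.10, 7.09 and 6.81 in AntiPD1 tumours, 7.87, 7.87, 7.68, 8.10 and 7.64 in Cabozantinib tumours, and 7.46, 7.40, 7.58 and 7.62 in Combination tumours. No value without the drug reached 7.40, and Gys1 rose by 0.64 ± 0.09 (adjusted p = 0.0017). Ppp1r3b, which targets a phosphatase to glycogen, was 7.72, 7.58, 7.54 and 7.58 under Placebo, 8.04, 7.62 and 7.67 under AntiPD1, 8.39, 8.56, 8.23, 8.16 and 8.12 under Cabozantinib, and 8.44, 8.43, 8.30 and 8.27 under Combination. It rose by 0.63 ± 0.08 (adjusted p = 0.00089), again in 9 of 9 tumours. Gbe1, the glycogen branching enzyme, rose by 0.76 ± 0.11 with 8 of 9 tumours above, and Pgm1, a phosphoglucomutase, by 0.47 ± 0.10 with 8 of 9 above, a call lost in 4 of the 16 fits without 1 array.

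Muscle and fat carry glycogen genes too, and their markers had positive differences. All 19 skeletal muscle markers were higher on average, with a median of 0.834, and 0 of 19 passed in limma or at an unadjusted p under 0.05. The mean of the muscle list relative to all tumours ran from -1.89 to 0.69 in Placebo, -1.89 to 4.33 in AntiPD1, -1.80 to 3.93 in Cabozantinib and -1.80 to 5.14 in Combination tumours. Of 12 adipocyte markers, 9 were positive and 0 passed, with a median of 0.863. At an unadjusted p under 0.05, 5 of the 12 rose, against 1234 of all 17097 genes. The mean of the adipocyte list ran from -0.90 to -0.20, -0.73 to 0.43, -1.02 to 2.31 and -0.08 to 1.85 in the same order of groups. With both kinds of arrays left out, the glycogen count was 2, Gys1 differed by 0.60 (adjusted p = 0.051), and Ppp1r3b and Gbe1 stayed past the threshold. With the muscle mean as a covariate, no call among these 4 genes was lost. The adipocyte mean was not fitted as a covariate, and the part of muscle and fat in these rises was not tested beyond these fits.

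RefSeq's table of promoter windows, on the mouse build GRCm38.p6, was searched for short motifs in the sets that rose and fell. The motif ACGTG, the core bound by hypoxia-inducible factors, was searched on both strands in windows of 300 bases, 250 before and 50 after each gene start. It was present for 22 of the 29 hypoxia and glycolysis genes with a window (75.9%) and 8 of 11 glycogen genes (72.7%), against 26.1% of the 13605 tested genes with a window. The hypoxia list is made of known targets of these factors, so this share is no independent evidence. Of the 12 risen hypoxia members, 10 have a window and all 10 held ACGTG. Among the 4 risen glycogen genes, 3 had a window and 1 held it. Of all genes that rose, 33.0% held it, and of those that fell, 21.8%. The 250 bases before the starts of Ero1a (chr14:45318573-45318822, minus strand) and P4ha2 (chr11:54100674-54100923, plus strand) are given as examples of risen hypoxia genes, with the motif in capitals, at 63 and 78 bases before the start. On the strand of Ero1a the motif reads CACGT.
Ero1a: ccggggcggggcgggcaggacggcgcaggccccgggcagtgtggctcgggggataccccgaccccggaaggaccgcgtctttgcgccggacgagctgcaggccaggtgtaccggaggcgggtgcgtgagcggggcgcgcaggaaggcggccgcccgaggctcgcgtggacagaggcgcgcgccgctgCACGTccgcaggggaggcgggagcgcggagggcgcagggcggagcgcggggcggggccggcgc
P4ha2: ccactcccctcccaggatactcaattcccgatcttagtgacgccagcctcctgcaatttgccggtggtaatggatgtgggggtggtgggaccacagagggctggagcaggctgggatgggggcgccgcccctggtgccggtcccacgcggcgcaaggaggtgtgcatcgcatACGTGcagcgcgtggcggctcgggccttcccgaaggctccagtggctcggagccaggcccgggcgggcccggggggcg

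ETS transcription factors are known to act at many endothelial promoters, so the letters CAGGAAG or CCGGAAG were searched the same way. They were present for 6 of the 14 endothelial list genes with a window (42.9%), 4 of 16 tip cell genes (25.0%) and 30.9% of all genes that fell, against 27.7% of all tested genes with a window. The sequence before Emcn (chr3:137340828-137341077, plus strand) and that before Apln (chrX:48034854-48035103, minus strand) are shown as vessel genes that fell, with the match in capitals, 174 and 113 bases before the start. Both read CTTCCTG, which is CAGGAAG on the other strand. The windows of Esm1 and Kdr held no match in these 250 bases. The sequence of Ero1a above, a gene that rose, held both CAGGAAG and CCGGAAG, which are not marked there.
Emcn: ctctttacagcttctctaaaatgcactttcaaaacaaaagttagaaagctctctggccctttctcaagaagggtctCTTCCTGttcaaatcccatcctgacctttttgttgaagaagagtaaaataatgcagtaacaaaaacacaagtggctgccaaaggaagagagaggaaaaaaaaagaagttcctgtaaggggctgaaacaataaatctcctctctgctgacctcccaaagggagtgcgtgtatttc
Apln: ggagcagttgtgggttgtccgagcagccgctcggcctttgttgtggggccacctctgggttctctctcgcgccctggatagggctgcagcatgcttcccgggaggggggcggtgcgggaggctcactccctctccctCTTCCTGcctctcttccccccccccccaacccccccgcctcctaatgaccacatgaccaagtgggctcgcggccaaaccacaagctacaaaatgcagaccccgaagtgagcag

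Mast cell genes fell steeply but unevenly. Of 14 measured markers, 7 fell and 0 rose, against 1.26% and 0.86% of all genes. A positive difference was found in 2, and the median was -1.045. Cpa3, the carboxypeptidase of mast cell granules, was 9.01, 5.87, 8.99 and 8.49 in Placebo, 8.95, 9.83 and 6.59 in AntiPD1, 4.31, 4.29, 4.81, 5.89 and 4.13 in Cabozantinib, and 5.86, 5.99, 5.90 and 6.38 in Combination tumours. Placebo replicate 2 was as low as the treated tumours, and Cpa3 fell by 2.91 ± 0.51 (adjusted p = 0.0107). Mcpt2, a granule protease, gave 9.19, 6.08, 8.64 and 6.49 under Placebo, 4.80, 5.79 and 5.56 under AntiPD1, 4.16, 4.51, 4.41, 4.32 and 4.14 under Cabozantinib, and 3.94, 4.03, 4.002 and 4.59 under Combination. Its 9 treated values were all below the other 7, and it fell by 2.27 ± 0.38 (adjusted p = 0.0082), with both treated means under the lowest array median. The proteases Cma1 and Mcpt4 fell by 2.52 ± 0.49 and 2.49 ± 0.51, and Tpsb2, a tryptase, fell by 1.18 ± 0.24. Fcer1a, a chain of the IgE receptor, fell by 1.94 ± 0.42. The calls of Fcer1a and Mcpt4 were lost in 6 and 5 of the 16 fits without 1 array. Under Cabozantinib and Combination, Fcer1a had means of 3.70 and 3.84 and Tpsb2 of 3.986 and 4.305. These too were under the lowest array median, 4.92. The count of 7 was 4 without AntiPD1 replicate 1, 4 without the muscle-high arrays, 3 without the adipocyte-high arrays and 1 without both kinds. Proteases of this family share sequence, and how far probes tell them apart was not tested.

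Haemoglobin transcripts had the largest fall of all genes. Hbb-b2, an adult beta globin, was 9.92, 11.84, 10.52 and 11.79 under Placebo, 11.88, 11.81 and 12.46 under AntiPD1, 7.59, 7.97, 7.29, 8.66 and 8.12 under Cabozantinib, and 9.46, 8.13, 9.03 and 10.13 under Combination. Only Combination replicate 4 reached into the Placebo range. Hbb-b2 fell by 2.98 ± 0.33 and Hba-a1, an alpha globin, by 2.78 ± 0.35 (adjusted p = 0.00054 and 0.0012). Globin genes have near-identical copies, so the exact gene is uncertain, and the mean of its probe sets gave -1.14 for Hbb-b2. Across 10 red cell and platelet markers, 2 fell, both globins, against 1.26% of all genes, and the median was -0.120. In 5 of the 10, all group means were under the lowest array median.

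Several genes of DNA copying fell. Of 24 DNA replication genes, 9 fell and 0 rose, against 1.26% and 0.86% of all genes. Only 1 had a positive difference, and the median was -0.351. Mcm5, a subunit of the replicative helicase, was 8.51, 8.78, 8.93 and 8.61 in Placebo, 8.40, 8.45 and 8.90 in AntiPD1, 8.05, 7.78, 7.71, 8.24 and 8.37 in Cabozantinib, and 8.31, 7.73, 8.29 and 7.93 in Combination tumours. All 9 treated tumours were below the others by a small margin, and Mcm5 fell by 0.60 ± 0.12 (adjusted p = 0.0249). Cdc6, a loader of that helicase, fell by 0.58 ± 0.13, Tyms, thymidylate synthase, by 0.46 ± 0.11, Prim1, a primase, by 0.44 ± 0.10 and Mcm4 by 0.32 ± 0.06. The 9 calls were 0 without Placebo replicate 3 and 0 without AntiPD1 replicate 3, between 2 and 5 without any 1 of 10 other arrays, and 0 with the hybridisation controls as a covariate. All 24 mitosis genes had a negative difference, with a median of -0.321, but 0 passed in limma. At an unadjusted p under 0.05, 19 of the 24 fell, against 1519 of all 17097 genes. Ccnb2, cyclin B2, differed by -0.51 ± 0.13 (adjusted p = 0.060), and Mki67, the gene of the Ki-67 antigen, by -0.12 ± 0.09 (adjusted p = 0.54). Stmn1, a microtubule regulator of dividing cells, was outside both lists and fell by 0.56 ± 0.08 with 9 of 9 tumours below.

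Some type I interferon genes fell, and their highest levels were those under the antibody alone. Of 16 measured, 5 fell and 0 rose, against 1.26% and 0.86% of all genes. None had a positive difference, and the median was -0.535. Ifit1, an antiviral RNA-binding protein, was 6.55, 5.66, 6.25 and 5.88 under Placebo, 7.91, 7.11 and 7.35 under AntiPD1, 5.30, 4.36, 6.47, 5.12 and 5.81 under Cabozantinib, and 5.98, 5.99, 5.85 and 5.65 under Combination. The AntiPD1 tumours alone stood apart, and the averaged fall was 1.13 ± 0.25 (adjusted p = 0.0313). Ifit3 fell by 1.12 ± 0.27, Irf7, a transcription factor of the response, by 0.94 ± 0.22, Rtp4 by 0.68 ± 0.16 and Mx1 by 0.63 ± 0.13. The count of 5 was 0 without Placebo replicate 3, AntiPD1 replicate 1 or AntiPD1 replicate 3, between 1 and 3 without any 1 of 10 other arrays, and 0 with the hybridisation controls as a covariate.

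Few genes of immune cells other than mast cells passed the threshold. Among 23 neutrophil markers, 17 had a positive difference and 1 rose, Stfa2l1, a stefin of neutrophils, by 1.42 ± 0.33 (adjusted p = 0.0382), a call that was lost in 11 of the 16 fits without 1 array. S100a8, a subunit of calprotectin, read 7.73, 7.43, 8.76 and 7.28 under Placebo, 10.15, 9.70 and 8.52 under AntiPD1, 9.66, 9.42, 8.79, 11.51 and 9.23 under Cabozantinib, and 10.33, 9.66, 9.53 and 8.62 under Combination. All 5 Cabozantinib values exceeded the 4 Placebo values, while AntiPD1 and Combination tumours overlapped, and the averaged difference was 1.0 ± 0.39 (adjusted p = 0.22). Its partner S100a9 differed by 1.28 ± 0.42 (adjusted p = 0.13). Of 15 T cell markers, 0 passed in limma and 0 at an unadjusted p under 0.05, with 4 positive differences. Cd8a, the coreceptor of killer T cells, differed by -0.11 ± 0.22 (adjusted p = 0.86), and 15 genes of cytotoxic lymphocytes gave 0 calls with 5 falls at an unadjusted p under 0.05. Of 15 genes of alternatively activated macrophages, 13 were positive and 0 passed, with 7 rises at an unadjusted p under 0.05. Ccl17, a chemokine of that state, differed by 1.16 ± 0.30 (adjusted p = 0.060). At an unadjusted p under 0.05, 1234 of all 17097 genes rose and 1519 fell.

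Tnfrsf9, the costimulatory receptor 4-1BB of activated T cells, was the regulatory T cell and checkpoint gene that rose, 1 of 15. It gave 8.15, 7.22, 7.59 and 7.08 under Placebo, 8.28, 8.12 and 7.59 under AntiPD1, 8.67, 7.94, 9.22, 9.89 and 8.91 under Cabozantinib, and 9.36, 9.48, 9.55 and 8.43 under Combination. All treated tumours but Cabozantinib replicate 2 exceeded the 7 others, with a rise of 1.31 ± 0.26 (adjusted p = 0.0203). Without AntiPD1 replicate 3 the adjusted p was 0.0679, with the hybridisation controls as a covariate 0.105, and 1 of its 2 other probe sets had the same sign. Cd274, the gene of PD-L1, differed by 0.56 ± 0.16 (adjusted p = 0.093), and Pdcd1, the gene of PD-1, by -0.15 ± 0.27.

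The largest rises were spread over several roles. An immunoglobulin kappa variable segment, part of the light chain that plasma cells make, had the largest rise of all genes, by 3.09 ± 0.71, with 4.20, 4.27, 4.12 and 4.32 in Placebo, 4.99, 5.44 and 4.03 in AntiPD1, 4.11, 5.22, 4.28, 8.53 and 4.44 in Cabozantinib, and 7.09, 11.01, 9.60 and 11.92 in Combination tumours. High values were confined to the 4 Combination tumours and Cabozantinib replicate 4, and these segments belong to a family of near-copies, so the gene is uncertain. Its adjusted p was 0.0376, and the call was lost in 11 of the 16 fits without 1 array. Another kappa segment, Igkv14-111, rose by 1.40 ± 0.25 (limma adjusted p = 0.0122), a call lost in 0 of these fits. It differed by 0.21 without the antibody and by 2.59 with it. Of 13 B and plasma cell markers, 0 passed in limma, with a median of 0.23. That median was -0.035 without the antibody and 0.508 with it. Slco1a5, an organic anion transporter, read 5.43, 4.46, 5.25 and 5.04 under Placebo, 4.81, 5.06 and 4.71 under AntiPD1, 6.51, 6.62, 6.27, 6.01 and 6.19 under Cabozantinib, and 6.44, 6.06, 5.64 and 5.76 under Combination. It rose by 1.19 ± 0.15 in 9 of 9 tumours (adjusted p = 0.0013). The transcript 9130015A21Rik rose by 1.23 ± 0.16, also in 9 of 9.

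Inhba, a chain of activin A, rose by 1.49 ± 0.35, Rarres2, the chemoattractant chemerin, by 1.38 ± 0.25, and Olr1, a receptor for oxidised low-density lipoprotein, by 1.16 ± 0.27. The calls of Inhba and Olr1 were lost in 13 and 12 of the 16 fits without 1 array. Nupr1, a stress-induced chromatin protein, rose by 1.13 ± 0.21, Lmcd1 by 1.08 ± 0.20 and Tenm4 by 1.06 ± 0.17. Ier3, an immediate early gene that limits cell death, rose by 0.63 ± 0.11 in 9 of 9 tumours. Junb, a subunit of AP-1, and Dusp1, a phosphatase of MAP kinases, rose by 0.45 ± 0.10 and 0.55 ± 0.13 and made the immediate early calls 3 of 19. Of all genes, 0.86% rose. The 3 immediate early calls were 1 without any 1 of 9 arrays. On the falling side, Serpind1, the thrombin inhibitor heparin cofactor II made by liver cells, fell by 1.76 ± 0.33 (adjusted p = 0.0158, and 0.0544 without AntiPD1 replicate 3).

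**Figure D3:**
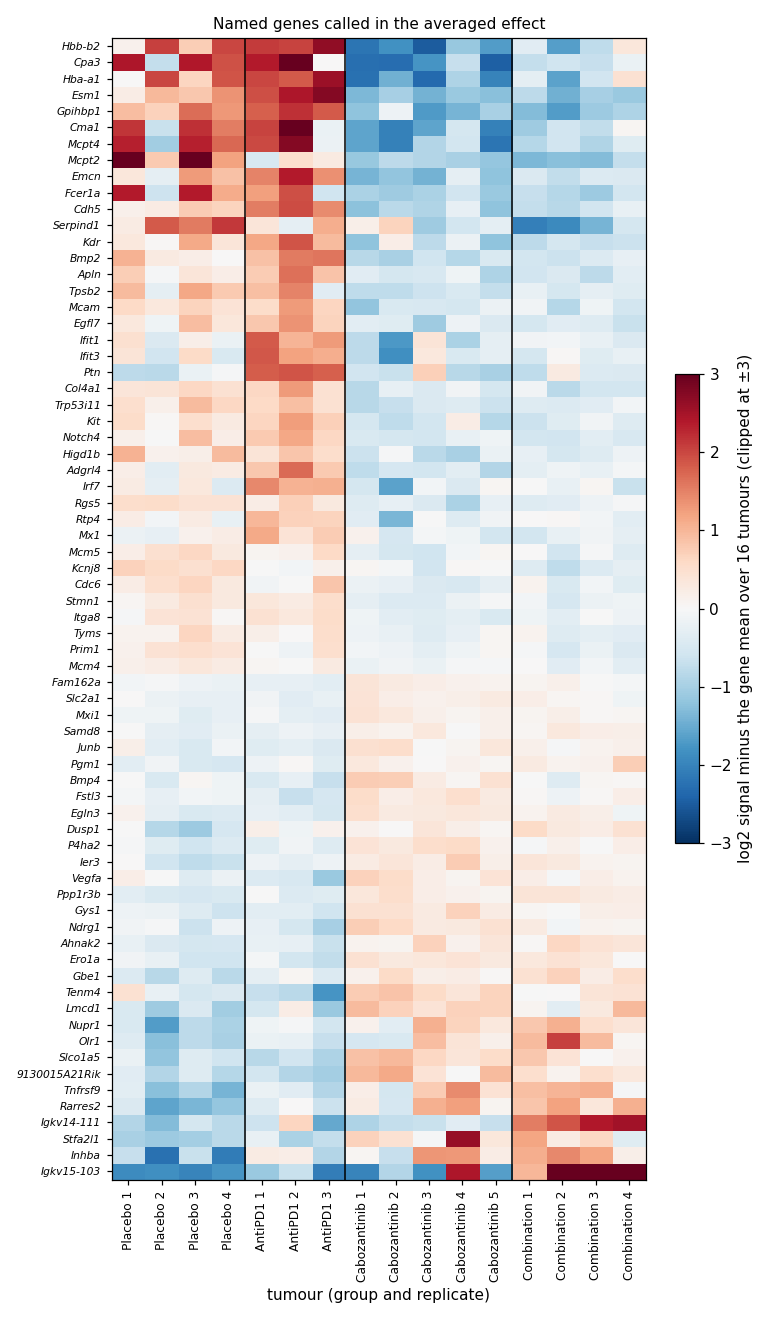
Deviation of the log2 signal from each gene's average in the 16 tumours (colour, clipped at 3 in either direction) for the 70 named genes called in the averaged effect (rows, in order of the averaged difference) in each tumour (columns, by group and replicate). The blue blocks of vessel genes fill both groups with cabozantinib, while Ptn and the interferon genes have their highest group mean under AntiPD1, and the Igkv genes are red mainly under Combination.

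The averaged effect rests on comparisons made without and with the antibody that share no tumour. Cabozantinib against Placebo called 19 rises (0.111%) and 25 falls (0.146%), and Combination against AntiPD1 called 1 rise (0.00585%) and 39 falls (0.228%). At an unadjusted p under 0.05 these comparisons had 2218 and 1233 genes. All 44 and all 40 calls were also in the average, 11 were in both, and 289 of the 362 were called in the average alone. Differences had the same sign in both comparisons for all 362 called genes, which is partly set by the choice of genes called on their mean, and for 65.8% of all genes. Across the 17097 genes, which are not independent replicates, Pearson's r of the differences was 0.608. The 44 calls were 91, 23, 5 and 14 without Placebo replicates 1 to 4, 24, 29 and 23 without Cabozantinib replicates 1 to 3, and 29 without Combination replicate 1. The 40 calls were 26 and 13 without AntiPD1 replicates 1 and 2, and 23, 18 and 21 without Combination replicates 1 to 3.

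**Figure D4:**
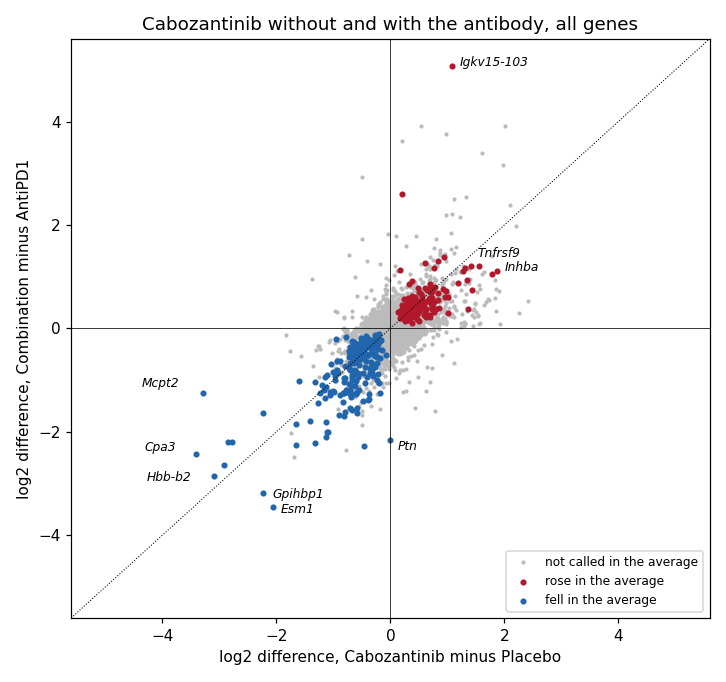
Log2 difference of Cabozantinib minus Placebo (x axis) against Combination minus AntiPD1 (y axis) for 17097 genes, with genes that rose in the averaged effect in red and genes that fell in blue. Called genes lie in the quadrants of equal sign, and Esm1 and Gpihbp1 lie below the dotted line of equal differences.

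No gene's response to cabozantinib differed with the antibody at an adjusted p under 0.05 in limma (0 genes, smallest adjusted p of 0.99972). The unadjusted p was under 0.05 for 440 genes, fewer than the 855 expected if no response differed. The unadjusted p-values of single genes given below therefore do not show that a response differed. All 25 endothelial markers had a lower difference with the antibody than without it, with a median change of -0.537, against 49.2% of all genes. This was not particular to vessel genes. All 19 skeletal muscle markers were lower too, with a median change of -1.088. So were 21 of 24 fibroblast and matrix genes and 19 of 22 hepatocyte and fetal liver genes. Esm1 fell by 2.06 without the antibody and fell by 3.45 with it, a change of -1.38 ± 0.32 (unadjusted p = 0.00061). The untreated levels differed, 6.73 under Placebo and 8.26 under AntiPD1, while the treated levels were 4.66 and 4.81. Gpihbp1 fell by 2.24 without it and fell by 3.19 with it (change of -0.95 ± 0.41, unadjusted p = 0.035), and Cdh5 fell by 1.33 without it and fell by 2.22 with it (change of -0.88 ± 0.31, unadjusted p = 0.012).

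All 16 type I interferon genes had a lower difference with the antibody as well, with a median change of -0.567. Neutrophil markers did so in 19 of 23, with a median of -0.669, and S100a8 differed by 1.92 without and 0.08 with the antibody. Of 32 hypoxia genes 18 were lower, with a median of -0.022, and Ero1a rose by 0.74 and by 0.72. The smallest unadjusted p of the interaction belonged to Mirg (0.00022), Igkv14-111 (0.00031) and Ptn (0.00033). Ptn, the growth factor pleiotrophin, was 6.65, 6.70 and 6.61 in the AntiPD1 tumours, while the other 13 lay between 3.85 and 5.55. The calls of the interaction were 1 without AntiPD1 replicate 2 and 1 without AntiPD1 replicate 3.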

How the data were processed

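Total RNA from 16 fresh-frozen tumours, 50 ng each, was hybridised to Affymetrix mouse arrays, per the labels' protocols. The authors deposited log2 signals per probe set. The submitters' processing notes name RMA and affy 1.62.0 and list no settings. No source used here gives a filter, a batch correction or dates of scanning. Of 45037 probe sets that are not controls, 28898 name 1 gene, 551 several and 15588 none. No value was missing, and 0 columns had no sample.

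Differences were tested in R 4.3.3 with limma 3.58.1 (lmFit and eBayes, 4 group means, no covariate, 12 residual degrees of freedom), adjusted by Benjamini-Hochberg over 17097 genes at 0.05. Array measures used two-sided exact permutation within antibody arms (4410 arrangements). The test was checked on simulated data. The comparison, the 35 gene lists and the named genes were chosen with earlier results of these data known, so the lists carry no test. Named genes were the 12 largest rises and falls, up to 5 called members per list (otherwise the 2 strongest), 6 genes called in the average alone, the 3 smallest p of the interaction, and a panel. Alternatives changed the weights, the probe set choice, the scaling, the covariates and the arrays included. Arrays have no depth, so their number limits the precision.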

Additional observations from a re-analysis of the deposited data

Results flagged for a closer look

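In groups of 4 or 5 tumours, 17 of the 279 sets of values examined (the named genes and 9 array measures) held a tumour whose distance from the nearest other was a large share of the group's range by Dixon's 95% limit, and chance alone gives about 1 in 20. Cabozantinib replicate 4, a muscle-high array, was highest for Emcn (6.28, next 5.36), the immunoglobulin kappa segment with the largest rise (8.53, next 5.22) and Stfa2l1 (7.71, next 5.79) and lowest for Rgs5 (9.85, next 10.38). Cabozantinib replicate 3 was highest for Ptn (5.55, next 4.26) and Mirg (4.42, next 4.16) and lowest for Kcnj8 (7.34, next 7.86). Cabozantinib replicate 2 was lowest for Rtp4 (7.99, next 8.98) and had an adipocyte list mean of 2.31 (next -0.29), and replicate 1 was highest for Egln3 (10.55, next 10.38). In the Combination group, replicate 2 was lowest for Emcn (5.79, next 6.10) and Bmp4 (8.66, next 9.03), and replicate 4, a muscle-high array, was highest for Mcpt2 (4.59, next 4.03) and lowest for Tnfrsf9 (8.43, next 9.36). Placebo replicate 2 was lowest for Cpa3 (5.87, next 8.49) and for the array median (4.92, next 5.03), and Placebo replicate 3 was highest for S100a9 (8.54, next 7.398).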

How the results depend on the processing

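All 70 named genes called in the averaged effect kept their sign under 32 alternatives, and 22 kept their call under each of them. Leaving out 1 array at a time, 46 of the 70 were never lost, among them the named endothelial, tip cell, pericyte, globin and hypoxia genes, 8 were lost in 1 to 5 of the 16 fits, and 16 in more, among them named DNA replication, type I interferon and immediate early genes. The 362 calls of the average ranged from 158 to 443 without 1 array. They were 730 with array quality weights, 929 with the Y-linked mean as a covariate, 224 with the antibody ignored, 132 with the hybridisation controls as a covariate, 230 without the adipocyte-high arrays and 77 without these and the muscle-high arrays (a setting chosen after seeing the data). With each array set to the same median, 30.5% of the calls were rises, against 40.6%. Calls of Cabozantinib against Placebo were 71 with array weights, 82 with the mean of a gene's probe sets, 70 without dim genes, 17 with the hybridisation controls, 72 with the muscle mean, 260 with the Y-linked mean, 4 with these arrays alone, and 5 to 91 without 1 array. For Combination against AntiPD1 they were 155 with array weights, 66 with the muscle mean, 85 with the Y-linked mean, 22 with these arrays alone, and 13 to 50 without 1 array. The interaction gave 1 call with the muscle mean and 0 to 1 without 1 array. The Y-linked mean differed by -0.060 between arrays with and without cabozantinib (two-sided exact permutation p = 0.759). It was not balanced between antibody arms, which did not overlap. It ran from -0.886 to 0.088 in Placebo, -1.016 to 0.150 in Cabozantinib, 0.425 to 0.769 in AntiPD1 and 0.250 to 1.003 in Combination tumours. The cause of these shifts in the number of calls was not tested, except that fits without arrays hold fewer samples. The number before the point in each tumour's title, whose meaning the labels do not give, gave 447 calls of the average as a random block, at a consensus correlation of -0.103. No paired analysis was possible because tumours with and without cabozantinib share no such number in either antibody arm or across arms. For the same reason the block fit cannot separate differences between these numbers from the effect of the drug.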

Other observations

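Lists without a called gene in the averaged effect covered much of the rest of the tumour. In limma, 0 of 24 fibroblast and matrix genes, 0 of 22 hepatocyte and fetal liver genes and 0 of 20 genes of unfolded protein and amino acid stress passed. The 14 p53 targets and the 23 respiratory chain genes gave 0 calls as well. At an unadjusted p under 0.05 these lists held 1, 5, 7, 6 and 3 genes in that order, against 2753 of all 17097 genes. The medians of these lists lay between -0.10 and 0.03 on the log2 scale. Of 11 dendritic cell markers 0 passed, with 4 falls at an unadjusted p under 0.05, against 1519 of all 17097 genes. Among these 4 was Xcr1, the receptor of cross-presenting dendritic cells (-0.47 ± 0.15, limma adjusted p = 0.12).

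The 17 cholesterol synthesis genes had a median averaged difference of -0.047, and 0 passed in limma or at an unadjusted p under 0.05. All 17 had a higher difference with the antibody than without it, with a median change of 0.246 against 0.003 for all genes, and 2 had an unadjusted p under 0.05. Their median difference was -0.152 for Cabozantinib against Placebo and 0.086 for Combination against AntiPD1. Hsd17b7, an enzyme of the pathway, differed by -0.44 and by 0.16 (limma adjusted p = 0.10 and 0.87), and 0 of its 2 other probe sets had the same sign of the averaged difference. This list was singled out after its values were seen.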
